A study of Mus musculus with 18 samples.

Results

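The mRNAs described here are 10 of the 13 protein-coding genes that the mitochondrial genome of the mouse carries, out of 38561 genes counted: mt-Nd1, mt-Nd2, mt-Nd3, mt-Nd4 and mt-Nd5 of respiratory complex I, mt-Cytb of complex III, mt-Co1, mt-Co2 and mt-Co3 of complex IV, and mt-Atp6 of the ATP synthase. They were chosen by name after results of these libraries had been seen. Which measured values entered that choice is not recorded, so their levels and differences are a description, and the p-values below are printed as output of the fit over all genes and not as independent evidence. All 10 were matched to a row of the count files, but only 6 had counts. mt-Nd1, mt-Nd2, mt-Nd4, mt-Nd5, mt-Cytb and mt-Co1 held between 76193 and 403837 counts in each library, and mt-Nd3, mt-Co2, mt-Co3 and mt-Atp6 were at 0 in all 18 libraries.

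The study asked how the brain transcriptome differs without Pcm1, a scaffold protein of the material around the centrosome. RNA was sequenced from frontal cortex, striatum and hippocampus of adult C57 Bl6J mice, with 3 WT and 3 Pcm1-/- littermates per region (18 libraries, 6 groups of 3). The Pcm1-/- line carries a gene-trap insertion in Pcm1, made in the embryonic stem cell line E14Tg2a.4 and crossed onto C57BL/6J, and no other allele or agent is named for any group. The 3 regions came from the same animals. Each library held between 24950537 and 33405081 counts on genes, and Pcm1 itself ranged from 3425 to 4919 counts in WT mice and from 313 to 520 counts in Pcm1-/- mice. Striatal projection neuron markers summed to at least 5141 CPM (counts per 1e6 of a library's TMM-scaled total) in each striatal library and to at most 225 CPM elsewhere, so these libraries carried the markers of the labelled region. Choroid plexus markers summed to 5805 CPM in WT striatum replicate 3, from mouse B, and to 26.7 to 158 CPM in the other 5 striatal libraries.

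Mitochondrial DNA is a small circle that is transcribed as long RNAs from both strands. These are cut at the tRNAs between the genes into separate mRNAs, which receive poly(A) tails and are translated inside the organelle. The mRNAs encode the core subunits of the respiratory complexes and of the ATP synthase, while the remaining subunits, all of complex II and the enzymes of mitochondrial transcription are made from nuclear genes. Neurons draw most of their ATP from this system.

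The 4 mRNAs without counts lie in one stretch of the genome. All 37 genes of the mitochondrial genome had a row, and 14 of them were at 0 in all libraries. Of these, 11 form 1 unbroken run of genes from mt-Ts1 to mt-Nd4l, chrM:6870-10173 on GRCm38, which is 3304 bases of the genome and holds 6 protein-coding and 5 tRNA genes. Inside it are mt-Co2, mt-Co3, mt-Nd3, mt-Atp6 and also mt-Atp8 and mt-Nd4l, which are not among the 10. The neighbours on either side had at least 148531 counts (mt-Co1) and 76193 counts (mt-Nd4) in every library. The 3 other genes at 0 were the short tRNA genes mt-Tw, mt-Ty and mt-Th. A count of 0 allows up to 3 counts, or 0.0897 to 0.126 CPM by library, for counting error only, and it limits the counted reads rather than the RNA.

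The protein-coding genes of the stretch without counts, other than mt-Atp8, have near-identical annotated copies in the nuclear genome. On chromosome 1, chr1:24611535-24616197 on the minus strand (4663 bases, GENCODE M21 annotation of GRCm38), 7 pseudogenes follow each other in the order of the mitochondrial genes. Gm28661 was identical to mt-Co2 over all 681 bases compared, Gm10925 to mt-Atp6 over 678 and Gm28437 to mt-Co3 over 783. Gm28438 matched mt-Nd3 at 344 of 345 bases, and Gm10222 matched mt-Nd4l at all 294. The 2 outer pseudogenes cover only part of the flanking members. Gm28439 holds the first 876 of the 1378 bases of mt-Nd4, and Gm29216 holds the last 492 of the 1545 bases of mt-Co1, with 6 substitutions between bases 1056 and 1066 (T1056A, C1057T, A1059G, A1060G, C1062A and A1066T) and none after. Each substitution gives the base of the mitochondrial gene, its position from the first base of that gene, and the base of the nuclear copy. Of the 7 pseudogenes only Gm10222 was in the authors' count files, where it was at 0 in all libraries.

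The sequences below show what a read from a member without counts would meet. The first 60 bases of mt-Nd3 (chrM:9459-9518, plus strand) and of its copy Gm28438 (chr1:24613060-24613119, minus strand) are given 5′ to 3′, with the only base that differs over the 345 compared in capitals (T3C), and those of mt-Atp6 (chrM:7927-7986) and Gm10925 (chr1:24614592-24614651, minus strand) do not differ at all. All sequences are read from GENCODE M21 transcripts of GRCm38.
mt-Nd3: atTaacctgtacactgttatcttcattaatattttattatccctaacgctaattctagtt
Gm28438: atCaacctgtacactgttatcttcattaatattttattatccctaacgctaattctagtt
mt-Atp6: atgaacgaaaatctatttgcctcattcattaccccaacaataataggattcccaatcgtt
Gm10925: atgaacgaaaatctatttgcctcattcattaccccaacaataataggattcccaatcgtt

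The next pair shows the edges of the copied stretch inside the 2 members that kept counts. In mt-Co1 (chrM:6364-6423) the capitals mark the bases that follow the last substitution against Gm29216, and in mt-Nd4 (chrM:11013-11072) they mark the last bases that Gm28439 holds.
mt-Co1: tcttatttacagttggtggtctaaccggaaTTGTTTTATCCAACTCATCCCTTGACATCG
mt-Nd4: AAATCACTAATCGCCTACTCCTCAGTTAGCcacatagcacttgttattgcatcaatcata

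Shared sequence and counts were compared gene by gene by cutting each member into all windows of 50 bases and searching them, on both strands, in the 141730 nuclear transcripts of the annotation. The share of windows found in a nuclear transcript was 100% for mt-Co2, 99.9% for mt-Co3, 99.5% for mt-Atp6 and 98.0% for mt-Nd3, the members at 0. mt-Co1 shared windows with 2 main copies, 430 with Gm29216 and 411 with Gm13340 on chromosome 2, which was counted and had at most 90 counts in a library. Among the members with counts the share was 62.2% for mt-Nd4, 51.1% for mt-Co1, 8.19% for mt-Nd2, 7.61% for mt-Nd5 and 0% for mt-Cytb and mt-Nd1. With windows of 100 bases the 4 members at 0 had 97.6% to 99.9% shared, and the members with counts at most 60.8%. mt-Atp8 and the 5 tRNA genes of the stretch, mt-Ts1, mt-Td, mt-Tk, mt-Tg and mt-Tr, were at 0 as well, with 0% of their windows in an annotated nuclear transcript. The annotation names no transcript in the 233 bases of chromosome 1 between the copies of mt-Co2 and mt-Atp6, while the mitochondrial genome has 230 bases between these genes, and no genome sequence was used here to read that gap. The authors kept only reads that mapped to a single place in the genome. Whether that step set the zeros was not tested on reads. The zeros of these 4 mRNAs are therefore not read here as low levels of the RNA.

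**Figure D1:**
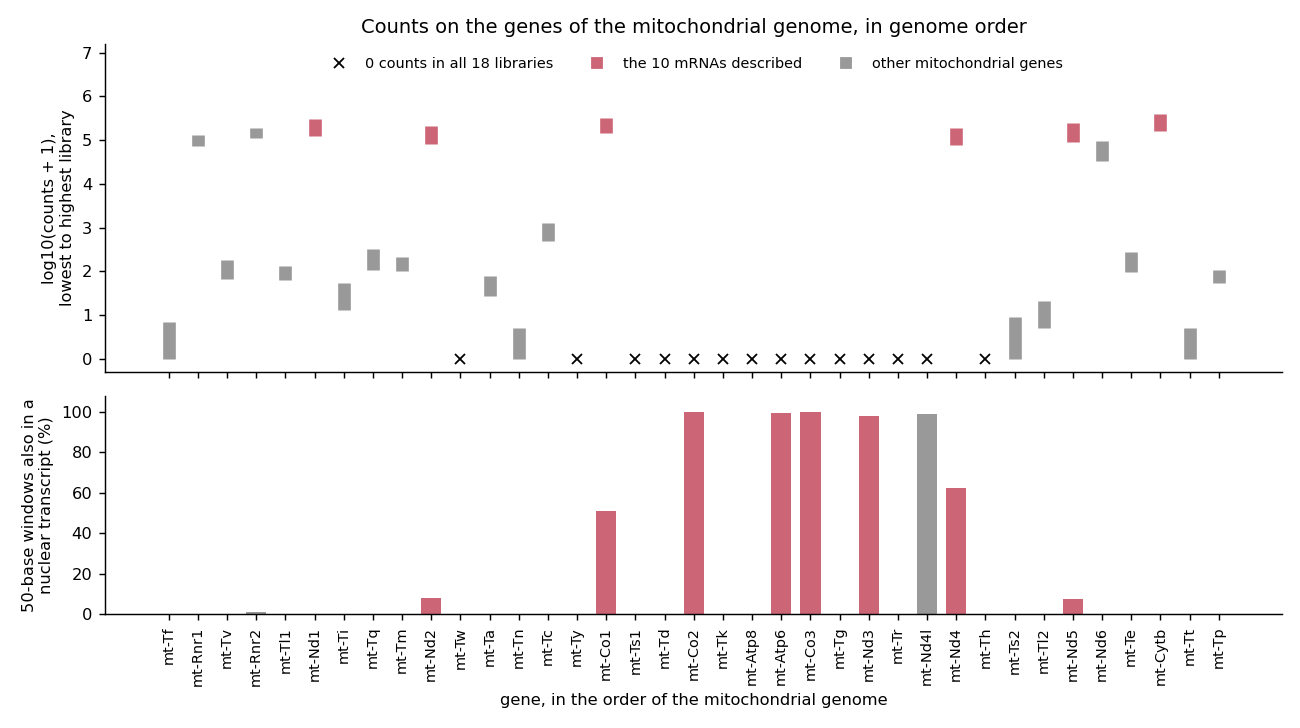
The upper panel gives the counts of each mitochondrial gene as log10(counts + 1), from the lowest to the highest of the 18 libraries, in genome order, with crosses for genes at 0 in all of them. The lower panel gives the percentage of each gene's 50-base windows found in an annotated nuclear transcript; mt-Co2, mt-Atp6, mt-Co3 and mt-Nd3, all at 0, stand at 98.0% to 100%.

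Among the 6 counted mRNAs, levels per kilobase of gene fell in the order mt-Cytb, mt-Nd1, mt-Co1, mt-Nd2, mt-Nd4 and mt-Nd5. mt-Cytb, the only mitochondrially encoded subunit of complex III, averaged 8133 CPM per kilobase ± 2706 (SD, n = 18), and mt-Nd1, a membrane subunit of complex I, averaged 7094 ± 2312. mt-Co1, the catalytic core of complex IV, averaged 5222 ± 1408, mt-Nd2 averaged 4356 ± 1534, mt-Nd4 3170 ± 1040 and mt-Nd5 3057 ± 1027 CPM per kilobase. The SDs are wide because whole libraries were high or low, and the order within a library was far steadier. mt-Cytb was above mt-Nd1 in 18 of 18 libraries, mt-Nd1 above mt-Co1 in 18, mt-Co1 above mt-Nd2 in 17 and mt-Nd2 above mt-Nd4 in 18. mt-Nd4 and mt-Nd5 were not separated, with mt-Nd4 higher in 10 of 18 libraries and a ratio between 0.916 and 1.23.

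This order depends on which bases of a gene can be counted. When each member was divided by its window starts without a nuclear copy or a neighbouring mitochondrial gene, mt-Nd4 kept 502 windows of 50 bases, or 36.4% of its length, and mt-Co1 kept 731, or 47.3%. On that scale mt-Co1 rose to the first place with 11036 CPM per 1000 countable starts ± 2976 (SD, n = 18), and mt-Nd4 to the second with 8703 ± 2855, ahead of mt-Cytb at 8497 ± 2827. mt-Nd5 stayed last in both orders. With windows of 100 bases mt-Cytb was again first, at 8904 CPM, before mt-Nd4 at 8703 and mt-Co1 at 8067 CPM per 1000 starts. The levels of mt-Co1 and mt-Nd4 relative to the other members are therefore uncertain, while the comparisons of one gene between libraries that follow use the same bases in all of them.

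The 6 mRNAs took a large and variable share of all counts, between 2.30% and 6.15% of the counts on genes in a library. By group this was 3.73% ± 0.687 (SD, n = 3) in WT and 2.56% ± 0.133 in Pcm1-/- frontal cortex, 5.24% ± 0.682 and 4.42% ± 0.682 in striatum, and 4.22% ± 1.75 and 3.018% ± 1.2 in hippocampus. The highest share was that of WT hippocampus replicate 1 and the lowest that of Pcm1-/- hippocampus replicate 1. In these bulk samples, fewer cells rich in mitochondria and less mitochondrial RNA per cell cannot be told apart.

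In frontal cortex all 6 counted mRNAs were lower in Pcm1-/- mice than in WT mice, at 64.7% to 71.1% of the WT mean. mt-Nd5, a proton-pumping subunit of complex I, was at 4976, 5285 and 6986 CPM in the WT libraries and at 3568, 3599 and 4001 CPM in the Pcm1-/- libraries. The highest Pcm1-/- library was below the lowest WT library. The difference was -0.63 log2 ± 0.12 (SE), with an adjusted p of 0.0389 in edgeR's quasi-likelihood test over all genes. mt-Cytb was at 7581, 8550 and 10625 CPM in WT and at 5764, 6089 and 6371 CPM in Pcm1-/- mice, -0.56 log2 ± 0.11 with an edgeR adjusted p of 0.0448. mt-Co1 was at 7319, 8487 and 10321 CPM in WT and at 5615, 5930 and 6299 CPM in Pcm1-/- mice, -0.56 log2 ± 0.11 with an edgeR adjusted p of 0.0475. For each of these mRNAs the 3 mutant libraries lay close together and WT replicate 1 was well above the other 2 WT libraries.

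The remaining complex I mRNAs differed by a like amount without passing the threshold. mt-Nd1 was at 5191 to 8149 CPM in WT and 4374 to 4964 CPM in Pcm1-/- frontal cortex (-0.50 log2 ± 0.14, edgeR adjusted p = 0.126), mt-Nd2 at 3331 to 5425 and 2796 to 3094 CPM (-0.53 ± 0.15, adjusted p = 0.134), and mt-Nd4 at 3442 to 4890 and 2677 to 2986 CPM (-0.52 ± 0.12, adjusted p = 0.0691). For all 6, the groups did not overlap. Of all 17545 genes tested, 9.28% were lower without overlap in this comparison, 1.74% passed the adjusted threshold of 0.05 and 0.336% passed it as lower. The 3 called mRNAs sit just inside that threshold, and mt-Nd4 just outside it.

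How many passed depended on single libraries and on the fit. Without WT replicate 3 the count was 6, with 825 of all 17545 genes called in place of 306, and without WT replicate 1 it was 1, with 88 of all genes. Without WT replicate 2 none of the 6 passed and 71 of all genes did, and without Pcm1-/- replicate 1, 2 or 3 none passed and 11, 27 or 54 of all genes did. In these 4 fits without a called mRNA the median difference of the 6 was -0.50 to -0.58 log2, against -0.54 with all libraries. It was -0.39 log2 without WT replicate 1 and -0.67 log2 without WT replicate 3. DESeq2 called all 6, and 687 of all 17545 genes against 306 by edgeR. When all 18 libraries were fitted together, as for the region comparisons, the median difference was -0.54 log2 and 0 passed, with edgeR adjusted p-values of 0.445 to 0.630, and 176 of all genes passed. The libraries ran on several sequencing lanes, and WT frontal cortex had 1 library on each of lanes 3, 4 and 5 while Pcm1-/- frontal cortex had 1 on lane 4 and 2 on lane 5. With lane as a covariate none of the 6 passed, and the differences ranged from -0.29 to -0.47 log2 with edgeR adjusted p-values between 0.0641 and 0.253. That fit called 29 of all 17545 genes. Lane 3 held only WT replicate 1 of this region, so the fit with lane drew its genotype difference from the other libraries. Its median of -0.37 log2 was near that of the fit without WT replicate 1. Within lane 4 the share of counts on the members was 3.62% in the WT and 2.56% in the Pcm1-/- library. Within lane 5 it was 3.10% in the WT and 2.69% and 2.42% in the Pcm1-/- libraries. These values compare 1 WT library per lane and were not tested.

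**Figure D2:**
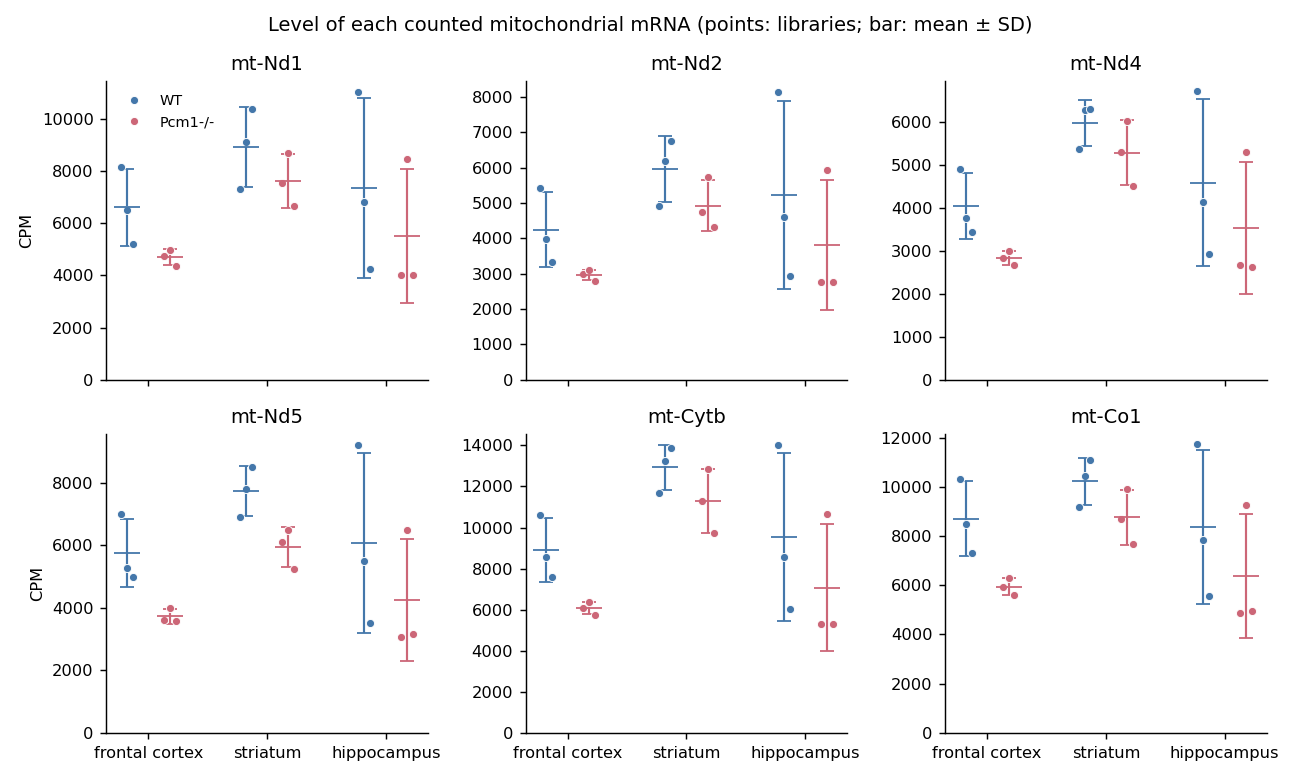
CPM of each counted mRNA by region; each point is a library, WT in blue and Pcm1-/- in red, and the bars give the mean and SD of 3 libraries. In frontal cortex the Pcm1-/- points lie below all WT points for all 6 mRNAs, while in hippocampus 1 WT and 1 Pcm1-/- library stand far above the others of their group.

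In striatum the 6 mRNAs had lower means in Pcm1-/- mice, at 76.8% to 88.3% of WT, and none passed the threshold. The nearest was mt-Nd5, at 6918, 7793 and 8492 CPM in WT and 5237, 6113 and 6473 CPM in Pcm1-/- striatum (-0.38 log2 ± 0.11, edgeR adjusted p = 0.223). It was the only one of the 6 whose groups did not overlap, against 9.39% of all genes lower without overlap. mt-Cytb was at 11692, 13231 and 13858 CPM in WT and 9727, 11286 and 12853 CPM in Pcm1-/- striatum, and the groups overlapped. Over all genes tested, 0.0285% of genes passed in this comparison. The median difference of the 6 was -0.22 log2 with all libraries, -0.14 without Pcm1-/- replicate 3 and -0.15 without WT replicate 3, the library with the high choroid plexus markers. Without WT replicate 1 and Pcm1-/- replicate 2, left out in turn, it was -0.32 and -0.33. For mt-Nd1 the difference was -0.23 log2 with all libraries and -0.11 without WT replicate 3. By DESeq2 1 of the 6 passed, as did 488 of all 17545 genes, and 1 of the 6 had an unadjusted edgeR p under 0.05, as did 2371 of all genes. All 3 WT striatal libraries ran on lane 5 and the Pcm1-/- libraries on lanes 3 and 4. Genotype and lane therefore cannot be told apart in striatum. In the model over all 18 libraries the median difference of the 6 was -0.23 log2 without lane and -0.64 with lane, and none passed in either.

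In hippocampus the spread within each group was larger than the difference between them. mt-Cytb was at 6036, 8575 and 14016 CPM in WT and at 5280, 5281 and 10663 CPM in Pcm1-/- hippocampus, and the other 5 had the same shape, with WT replicate 1 and Pcm1-/- replicate 2 on top. The differences ran from -0.40 to -0.54 log2 with SEs from 0.33 to 0.42, none passed by edgeR or DESeq2, 0 had an unadjusted edgeR p under 0.05, and all 6 overlapped. Of all genes 0.0171% passed. The size turned on single libraries, since the median difference of the 6 was -0.44 log2 with all libraries, -0.04 without WT replicate 1 and -0.87 without Pcm1-/- replicate 2. Without WT replicate 3 it was -0.72, and without Pcm1-/- replicate 1 or 3 it was -0.28 and -0.29. Within lane 3 the share of counts on the members was 6.15% in the WT and 2.30% and 4.41% in the Pcm1-/- libraries, and within lane 5 it was 2.72% in the WT and 2.35% in the Pcm1-/- library.

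A fit of all 18 libraries tested whether the genotype difference differs between regions. None of the 6 passed the adjusted threshold in edgeR's test of both interaction terms, which 0.0114% of all genes passed. At an unadjusted p under 0.05 there were 0 of the 6 and 972 of all 17545 genes, and the unadjusted p-values of the 6 were 0.647 to 0.853. The lower values in frontal cortex are therefore not shown to be particular to that region.

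**Figure D3:**
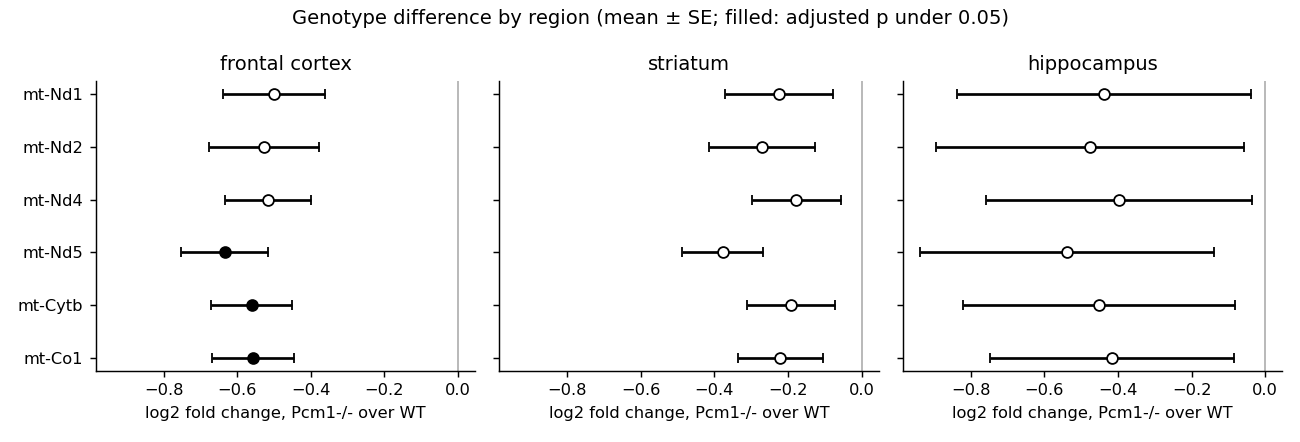
Difference between Pcm1-/- and WT mice for each counted mRNA as log2 fold change with its SE, by region, where filled points have an edgeR adjusted p under 0.05. All 18 points lie below 0; the 3 filled ones are mt-Nd5, mt-Cytb and mt-Co1 in frontal cortex, and the bars are widest in hippocampus.

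Across regions the 6 mRNAs were higher in striatum than in frontal cortex in each mouse. The share of counts on the members rose from frontal cortex to striatum in 6 of 6 mice, by 1.2 to 1.67 times in 5 of them and 1.92 times in the other, and each of the 6 mRNAs was higher in striatum in every mouse. The mouse behind each library was taken from the deposited names, in which the WT striatal replicate numbers do not follow the mice. WT mouse A went from 4.46% in frontal cortex to 5.36% in striatum, mouse B from 3.62% to 5.86% and mouse C from 3.10% to 4.51%. Pcm1-/- mouse A went from 2.56% to 4.27%, mouse B from 2.69% to 5.16% and mouse C from 2.42% to 3.82%. The 3 libraries of WT mouse C all ran on lane 5, and within that lane the rise was 1.46 times.

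In Pcm1-/- mice the striatal and frontal cortex groups did not overlap for any of the 6, where 32.8% of all genes were higher without overlap. mt-Nd4 was at 2677, 2829 and 2986 CPM in frontal cortex and at 4512, 5290 and 6015 CPM in striatum (0.90 log2 ± 0.27, edgeR adjusted p = 0.0113), and mt-Cytb differed by 0.89 log2 ± 0.27 (adjusted p = 0.0120). These 2 passed and the other 4 did not, in a comparison where 51.0% of all genes passed and 25.0% passed as higher. With the mouse as a block, which pairs the regions of 1 animal, all 6 passed, with edgeR adjusted p-values from 0.00144 to 0.0200, and so did 9773 of all 17545 genes, 4862 of them higher, in place of 8956 and 4382. With lane as a covariate none passed, the median difference of the 6 was 0.38 in place of 0.72 log2, and 8398 of all genes passed.

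In WT mice the same comparison gave differences of 0.23 to 0.57 log2 and no call by edgeR or DESeq2, with 0 of 6 at an unadjusted edgeR p under 0.05, where 48.3% of all genes passed. With 1 library left out, mt-Co1 ran from 0.12 to 0.37 log2 and mt-Nd1 from 0.29 to 0.61 log2. Only 2 of the 6, mt-Nd4 and mt-Cytb, did not overlap, against 27.3% of all genes higher without overlap. mt-Nd4 was at 3442, 3764 and 4890 CPM in frontal cortex and at 5352, 6277 and 6287 CPM in striatum (0.57 log2 ± 0.27, edgeR adjusted p = 0.0970). With the mouse as a block these 2 passed, mt-Nd4 with an edgeR adjusted p of 0.0181 and mt-Cytb with 0.0308, as did 9332 of all genes in place of 8468. With lane as a covariate 5 of the 6 passed, all but mt-Co1, and the median of the 6 was 0.83 in place of 0.46 log2, while 7698 of all genes passed. The number of all genes called was lower with lane than without it in both genotypes.

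Hippocampus was not distinguishable from frontal cortex. The share of counts was higher in hippocampus in 3 of 6 mice, the differences were between -0.06 and 0.30 log2 in WT and between 0.10 and 0.36 log2 in Pcm1-/- mice, no mRNA passed by edgeR or DESeq2, 0 had an unadjusted edgeR p under 0.05, and all 6 overlapped in both genotypes, where 37.7% and 37.8% of all genes passed. These small differences turned on single libraries. Without WT hippocampus replicate 1 the median of the 6 in WT went from 0.13 to -0.27 log2, and without Pcm1-/- hippocampus replicate 2 the median in Pcm1-/- mice went from 0.23 to -0.21 log2. Adding lane to the fit turned the direction of all 6 in Pcm1-/- mice, with a median of -0.16 log2.

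Between striatum and hippocampus no mRNA passed by edgeR or DESeq2 either, with 0 of 6 in WT and 2 of 6 in Pcm1-/- mice at an unadjusted edgeR p under 0.05, where 35.9% of all genes passed in WT and 41.5% in Pcm1-/- mice. The share was higher in striatum in 5 of 6 mice, WT mouse A being the exception with 5.36% in striatum and 6.15% in hippocampus. The medians of the 6 were 0.32 log2 in WT and 0.48 log2 in Pcm1-/- mice, and all groups overlapped. Without WT hippocampus replicate 1, 3 of the 6 passed in WT, with a median of 0.73 log2 and 6163 of all genes called in place of 6300. Without WT hippocampus replicate 3 the WT median was 0.077 log2 and none passed. Without Pcm1-/- hippocampus replicate 2 all 6 passed in Pcm1-/- mice, with a median of 0.93 log2 and 6809 of all genes called in place of 7284, and without Pcm1-/- hippocampus replicate 1 or 3 the median was 0.31 and 0.32 log2 and none passed. With the mouse as a block 3 passed in Pcm1-/- mice, mt-Nd4, mt-Cytb and mt-Co1, with edgeR adjusted p-values of 0.0145, 0.00913 and 0.0316, and 8093 of all genes passed. With lane as a covariate 2 of the 6 passed in each genotype, and the WT median was 0.73 log2, where 5597 of all genes passed in WT and 6764 in Pcm1-/- mice.

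**Figure D4:**
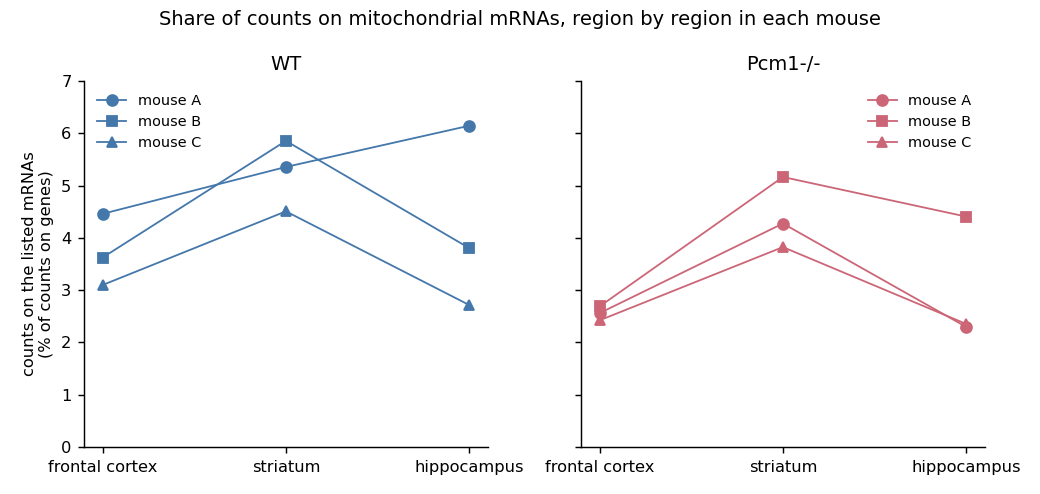
Share of counts on the listed mRNAs, as a percentage of counts on genes, in the 3 regions of each mouse; each line is a mouse. The line rises from frontal cortex to striatum in all 6 mice, and WT mouse A in hippocampus is the highest point at 6.15%.

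The 6 mRNAs moved as a block from library to library. In 16 of 18 libraries all 6 lay on the same side of their group mean. The deviations of any 2 mRNAs from their group means correlated at 0.984 to 0.998 over the 15 pairs, a description over 18 libraries in which the mRNAs of a library share its depth and its RNA. Their SD within groups was 0.34 to 0.44 log2, when the median over the 5784 genes whose mean log2 CPM reached 5 or more was 0.103, and all 6 were at or above percentile 98.8 of those genes. WT hippocampus replicate 1 lay 0.67 log2 above its group mean, averaged over the 6, and WT hippocampus replicate 3 lay 0.62 below it. Pcm1-/- hippocampus replicate 2 lay 0.69 above its own.

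**Figure D5:**
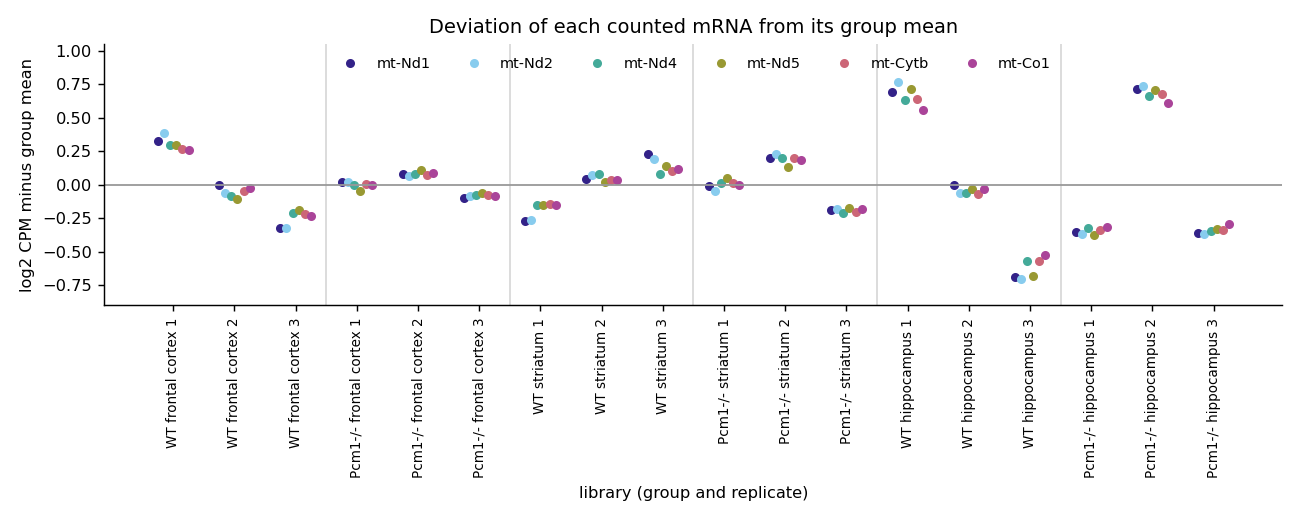
Deviation of each counted mRNA, in log2 CPM, from the mean of its group in each of the 18 libraries, where each color is a gene. The 6 points of a library lie close together, while their mean ranges from -0.62 in WT hippocampus 3 to 0.69 in Pcm1-/- hippocampus 2.

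The hippocampal libraries that stood highest in their group also differed from the others in marker sums. Nuclear long noncoding RNAs (Malat1, Meg3, Neat1, Miat and Snhg11, 5 of 5 tested) summed to 1772 CPM in WT hippocampus replicate 1 against 799 and 1201 CPM in the other WT hippocampal libraries, and to 1413 CPM in Pcm1-/- hippocampus replicate 2 against 689 and 788 CPM in the others. Other lists stood apart in these libraries in opposite ways. Choroid plexus markers summed to 6042 CPM in WT hippocampus replicate 1 (2058 and 2247 CPM in the other WT libraries) and to 178 CPM in Pcm1-/- hippocampus replicate 2 (2258 and 3989 CPM in the others). Oligodendrocyte markers were at 9341 CPM in the former (4688 and 7656 CPM in the other WT libraries) and at 3561 CPM in the latter (4949 and 5811 CPM in the others).

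Marker levels were also compared by genotype. In frontal cortex the nuclear long noncoding RNAs summed to 1705 to 2666 CPM in WT and 961 to 2033 CPM in Pcm1-/- libraries, with 5 of 5 lower (median -0.61 log2) and none called. Blood markers were lower in 5 of 5 there, at 109 to 175 CPM in WT and 35.8 to 79.0 CPM in Pcm1-/- libraries. Oligodendrocyte markers were lower in 5 of 5, at 1833 to 2466 and 1646 to 1745 CPM, and microglia markers in 5 of 5, at 298 to 400 and 256 to 290 CPM. Neuron markers were mixed, with 3 of 5 higher, 2 lower and 1 called (median 0.021 log2), and summed to 7528 to 8718 CPM in WT and 8855 to 9162 CPM in Pcm1-/- frontal cortex. Cortical projection neuron markers were higher in 4 of 5 with 1 called, at 2572 to 2695 and 3007 to 3183 CPM, and striatal projection neuron markers in 4 of 6 with 2 called, at 156 to 178 and 208 to 225 CPM.

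In striatum oligodendrocyte markers were lower in 5 of 5, at 8901 to 9108 CPM in WT and 5412 to 8842 CPM in Pcm1-/- libraries, and astrocyte markers in 4 of 5, at 1333 to 1882 and 1182 to 1271 CPM. Blood markers were lower in 5 of 5 there with overlapping sums, at 71.8 to 227 and 43.9 to 92.2 CPM, and striatal projection neuron markers were higher in 6 of 6, at 5141 to 5848 and 5986 to 6404 CPM. Microglia markers were lower in 5 of 5, at 380 to 535 and 338 to 389 CPM, and choroid plexus markers in 5 of 5 with overlapping sums. In hippocampus blood markers were lower in 5 of 5, at 125 to 216 CPM in WT and 33.3 to 69.8 CPM in Pcm1-/- libraries, and endothelial markers in 5 of 5, at 153 to 218 and 136 to 148 CPM. Oligodendrocyte and microglia markers were lower in 5 of 5 there with overlapping sums, as were the nuclear long noncoding RNAs (median -0.40 log2, 799 to 1772 CPM in WT and 689 to 1413 CPM in Pcm1-/- libraries) and the choroid plexus markers (median -0.60 log2, 2058 to 6042 and 178 to 3989 CPM). The cortical projection neuron markers were higher in 5 of 5, at 1632 to 2176 and 2195 to 2755 CPM. None of the markers named here for striatum and hippocampus was called by genotype. Between regions, oligodendrocyte markers summed to 5412 to 9108 CPM in striatum and 1646 to 2466 CPM in frontal cortex, and neuron markers to 3467 to 3787 and 7528 to 9162 CPM. The nuclear long noncoding RNAs summed to 1414 to 1968 CPM in WT striatum and 1705 to 2666 CPM in WT frontal cortex. In Pcm1-/- libraries they summed to 1426 to 1958 and 961 to 2033 CPM. They were thus not higher in WT striatum, where the mitochondrial mRNAs were. The share of reads on no gene was 10.14% to 10.95% in WT and 8.985% to 10.15% in Pcm1-/- frontal cortex, and it was highest of all libraries in WT hippocampus replicate 1, at 11.6%. No marker of these lists was at 0, and their part in the levels of the mitochondrial mRNAs was not tested.

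Within the pool of the 6 mRNAs the composition was nearly fixed but differed by region. mt-Co1 made up 22.2% to 23.2% of their counts in the 6 frontal cortex libraries, 19.5% to 20.2% in the 6 striatal libraries and 19.3% to 22.1% in hippocampus. mt-Cytb had 22.9% to 23.8% in frontal cortex and 24.4% to 25.9% in striatum, and mt-Nd4 had 10.3% to 10.8% and 11.1% to 12.1%. Frontal cortex and striatum did not overlap for these 3. By genotype mt-Nd5 did not overlap in frontal cortex, with 14.45% to 15.63% in WT and 13.74% to 14.44% in Pcm1-/- libraries, or in striatum, with 14.7% to 15.3% in WT and 13.03% to 14.01% in Pcm1-/- striatum. In frontal cortex the groups nearly touched. In hippocampus mt-Nd5 overlapped, with 13.92% to 15.13% in WT and 13.49% to 14.08% in Pcm1-/- libraries. These shares sum to a whole in each library and were not tested.

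The other long genes of the mitochondrial genome were counted too. mt-Nd6, the only protein-coding gene on the other strand, had 34055 to 95599 counts and was at 1854 to 2677 CPM in WT and 1354 to 1524 CPM in Pcm1-/- frontal cortex (-0.63 log2 ± 0.12, edgeR adjusted p = 0.0467). The ribosomal RNAs mt-Rnr1 and mt-Rnr2 differed by -0.31 log2 ± 0.10 and -0.31 ± 0.09 there, with edgeR adjusted p-values of 0.171 and 0.123. Counts on the members per count on the 2 rRNAs were 4.06 to 4.79 in WT and 3.71 to 3.98 in Pcm1-/- frontal cortex, without overlap. The groups overlapped in striatum, at 4.33 to 5.95 in WT and 4.54 to 4.96 in Pcm1-/- libraries. They also overlapped in hippocampus, at 3.44 to 5.98 and 3.125 to 4.28. Over all groups this ratio was highest in WT hippocampus replicate 1, at 5.98, which was also the library with the highest share.

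Of 38 nuclear factors for mitochondrial DNA and RNA, which include the RNA polymerase Polrmt, the packaging factor Tfam and the mRNA stabilizer Lrpprc, none was called by edgeR in any region (2, 3 and 0 had an unadjusted p under 0.05 in frontal cortex, striatum and hippocampus, where 2685, 2371 and 1736 of all 17545 genes did), and the median difference was -0.024 log2 in frontal cortex, -0.023 in striatum and 0.030 in hippocampus. Between WT regions, 9 of the 38 were called higher and 3 lower in striatum than in frontal cortex, with a median of 0.101 log2 against 0.018 over all genes, where 48.3% of all genes were called. Hsd17b10, a subunit of mitochondrial RNase P, was at 25.7 CPM ± 1.02 (SD, n = 3) in striatum and 15.6 ± 0.678 in frontal cortex (0.72 log2, edgeR adjusted p = 8.52e-08). Twnk, the mitochondrial DNA helicase, differed by 0.59 log2 (adjusted p = 7.08e-06) and Ptcd1, an RNA-binding protein, by 0.56 log2 (adjusted p = 9.68e-06). For hippocampus against frontal cortex, where 37.7% of all genes were called, 3 were called higher and 5 lower, with Hsd17b10 (0.40 log2), Polg, the mitochondrial DNA polymerase (-0.35 log2), and Ptcd2 (-0.29 log2) having the smallest p-values. For striatum against hippocampus, where 35.9% of all genes were called, 10 were called higher and 1 lower, led by Angel2 (0.59 log2), Ptcd1 (0.60 log2) and Polg (0.50 log2).

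The nuclear genes of the respiratory complexes and the ATP synthase showed no edgeR call with genotype in any region. Of them 9, 1 and 0 had an unadjusted p under 0.05 in frontal cortex, striatum and hippocampus, against the 2685, 2371 and 1736 of all 17545 genes. Of 73 nuclear oxidative phosphorylation genes tested, 50 had a higher and 23 a lower value in Pcm1-/- frontal cortex, with a median of 0.049 log2 against -0.007 over all genes, while the 6 mitochondrial mRNAs had a median of -0.54 log2. By complex the frontal cortex medians were 0.049 log2 for 36 genes of complex I, 0.044 for 4 of complex II, 0.112 for 9 of complex III, 0.012 for 11 of complex IV and 0.058 for 13 of the ATP synthase. The gene with the smallest p was Atp5g3, a ring subunit of the ATP synthase, at 131 CPM ± 5.69 in WT and 153 ± 2.09 in Pcm1-/- frontal cortex (edgeR adjusted p = 0.0960). In striatum it was Uqcr10 of complex III (0.18 log2, adjusted p = 0.272) and in hippocampus Ndufa4 (0.16 log2, adjusted p = 0.589). Between WT striatum and frontal cortex 6 of the 73 were called higher and 8 lower, where 48.3% of all genes were called. Their median was -0.031 log2, while the 6 mitochondrial mRNAs had a median of 0.46 log2.

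Genes outside the mitochondrial genome with a pattern like that of the members were found by the correlation of log2 CPM with the mean of the 6 over 18 libraries, among 5775 genes whose mean log2 CPM reached 5 or more. Among the highest were Cfdp1 (r = 0.929), Ube2r2 (0.912), Srrt (0.899) and Prpf38b (0.898). Each of these 4 had a lower mean in Pcm1-/- than in WT mice in each region and their highest means in striatum, as the members had. Because they were picked for this correlation, that shared pattern was largely set by the choice. Some of the differences were small, as for Ube2r2 at 114.5 CPM in WT striatum and 114 CPM in WT hippocampus. Srrt ranged from 53.3 CPM in Pcm1-/- frontal cortex to 97.1 CPM in WT striatum. These correlations are descriptions over libraries that share regions, animals and lanes.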

How the data were processed

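mRNA libraries (KAPA stranded kit, Illumina HiSeq) from 18 samples were analysed. The authors trimmed reads with Trim Galore and cutadapt, aligned them with STAR to mouse GRCm38 (release 73), kept reads that mapped to one place and counted them per gene with HTSeq; the deposited values are raw counts. The strand setting and tool versions are not given in the sources used here. Genes with at least 10 counts in any library (17545) were kept. Tests were edgeR 4.0.16 quasi-likelihood fits across all genes with TMM factors and Benjamini-Hochberg adjustment, within each region for genotype and over all 18 libraries for regions and the interaction. DESeq2 1.42.0 was an alternative. Scripts were tested on simulated data. Symbols, positions and transcripts came from GENCODE M21, which names 36723 of the 38561 genes.

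The 10 mRNAs and the gene lists were chosen with earlier results of these data known. Named genes were the members, the other long mitochondrial genes, nuclear copies with sequence of a member, factors called with genotype or the 3 with the smallest p among those called in each WT region comparison, the nuclear respiratory gene with the smallest p per genotype comparison, and the 5 most like genes, of which 1 is not reported here. Libraries of a group came from separate mice by their deposited names, and all pairs within a group differed beyond counting noise (chi-square per degree of freedom 7.015 to 59.03). Same-mouse libraries of different regions deviated together, with mean correlations of 0.170 to 0.454 by comparison over 12870 genes, and regions came from the same animals, so the mouse block is given beside region results that it changes. Between genotypes the same number gave mean correlations of 0.241 in frontal cortex, -0.0737 in striatum and 0.337 in hippocampus. The reported genotype fits did not take the number as a pairing in any region. Depth was 24950537 to 33405081 counts per library, and counting error alone is covered by the limits given for counts of 0.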

Additional observations from a re-analysis of the deposited data

How the results depend on the processing

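Of 156 counts of called mRNAs under other settings, 128 stayed within 1.5 times the reported count, where a reported 0 was kept only if it stayed 0. Most of these are zeros that stayed 0. Only Pcm1-/- against WT in frontal cortex and Pcm1-/- striatum against frontal cortex had a reported count above 0. The figure therefore does not measure how well calls held. For Pcm1-/- against WT in frontal cortex, 3 mRNAs were called, and 6 with DESeq2 and 6 with no filter on low counts, where 544 of 24461 genes passed. The count was 0 when all 18 libraries were fitted together, 0 with lane as a covariate, and 0 to 6 when 1 library was left out. In striatum DESeq2 called 1 against 0. With lane as a covariate, striatum against frontal cortex gave 5 calls in WT (0 reported) and 0 in Pcm1-/- mice (2 reported), and striatum against hippocampus gave 2 in each genotype (0 reported). In Pcm1-/- mice striatum against frontal cortex gave 5 calls with no filter and 5 in a fit of the 9 libraries of the genotype, and striatum against hippocampus gave 1 and 1. Of all genes, 8483 of 26966 and 9524 of 17545 passed in the first comparison. In the second, 6825 of 26966 and 7896 of 17545 passed. Leaving out 1 library gave 0 to 3 calls for WT and 0 to 6 for Pcm1-/- striatum against hippocampus. The cause was not tested.

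With the replicate number as a block, 6 were called in frontal cortex between genotypes, where the number marks no shared animal. That fit called 665 of all 17545 genes in place of 306. For regions the number block gave 1 call for WT striatum against frontal cortex, 6 for Pcm1-/- striatum against frontal cortex and 2 for Pcm1-/- striatum against hippocampus, and the block by mouse gave 2, 6 and 3. Of all 17545 genes, the number block called 8347, 8838 and 7129, and the block by mouse 9332, 9773 and 8093. Neither block changed the count in another comparison.

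Of 792 values of single mRNAs, 693 kept direction and side of the threshold and 22 turned direction. With lane as a covariate, Pcm1-/- hippocampus against frontal cortex gave -0.17 log2 for mt-Nd1, -0.064 for mt-Nd2, -0.052 for mt-Nd4, -0.21 for mt-Nd5, -0.14 for mt-Cytb and -0.22 for mt-Co1. With 1 library left out this comparison ran from -0.22 to 0.41 for mt-Nd1, -0.10 to 0.55 for mt-Nd2, -0.10 to 0.49 for mt-Nd4, -0.26 to 0.37 for mt-Nd5, -0.20 to 0.39 for mt-Cytb and -0.27 to 0.25 for mt-Co1. In WT mice it ran from -0.26 to 0.43 for mt-Nd1, -0.17 to 0.58 for mt-Nd2, -0.20 to 0.42 for mt-Nd4, -0.35 to 0.35 for mt-Nd5, -0.29 to 0.34 for mt-Cytb and -0.38 to 0.16 for mt-Co1, and WT striatum against hippocampus from -0.088 to 0.66 for mt-Nd2. With all reads entering the counting as the total, the share of counts on the 10 members, KO frontal cortex (KO for Pcm1-/-), was 2.264% in place of 2.556%. Of the 15 pairs in the order per kilobase, 10 kept their order with countable windows of 50 bases, and, in settings chosen after seeing the data, 10 with 75 and 11 with 100 bases. With 3 mice a group, hippocampal differences of the size seen could not be told from the spread.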
